A study of Oryza sativa Japonica Group with 6 samples.

Results

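In rice grains, 38 of 55983 listed genes had transcripts in the libraries of 1 genotype and next to none in those of the other. Each had at least 5 TPM (a transcript's share of a library, corrected for its length) in all 3 libraries of 1 group and at most 0.5 TPM in all 3 libraries of the other. By these limits 16 of the 38 are called sgs3-only and 22 WT-only below, although 15 of them had a trace of up to 0.5 TPM in at least 1 library of the low group. The same limits held for 7 more genes, which were left out because they are described as a prolamin, a transposon or RICESLEEPER gene or lie in a block on chromosome 1 around LOC_Os01g05620, where a disease resistance gene and a histone H2B gene change in opposite directions. The study compared grains of an sgs3 mutant, labelled as treated with EMS (ethyl methanesulfonate, a chemical mutagen), with control grains of its wild-type line Zhenong 34 (WT). Both are japonica rice and each group had 3 libraries of total RNA made with an mRNA kit. The labels give neither the age of the grains nor the mutated gene. Nothing in them tells if replicates are different plants, and p-values below therefore cover only variation among these 6 libraries, some of which may be technical.

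Rice genomes hold many duplicated gene families whose copies lie side by side, and many predicted genes whose product is unknown. A table of transcript levels shows whether a gene was transcribed in the grain, not whether the genome of a line holds it. The labels do not spell out sgs3. A gene called SGS3 is known in Arabidopsis for its protein, a partner of an RNA-dependent RNA polymerase in making small RNAs that silence genes. In whole grains, fewer cells of a type and less RNA per cell cannot be told apart.

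The 38 genes were chosen by this very contrast, so their own values are a description without a test. Before any gene was left out, 19 of the 5675 genes with at least 5 TPM in every sgs3 library were at or under 0.5 TPM in every WT library (0.335%). Of the 8446 genes with at least 5 TPM in every WT library, 26 were at or under 0.5 TPM in every sgs3 library (0.308%). The sgs3-only genes summed to 286.49, 371.07 and 468.73 TPM in the sgs3 libraries, against 0.4, 0.69 and 0.16 TPM in the WT libraries. The WT-only genes summed to 0.09, 0.51 and 0.27 TPM in the sgs3 libraries, against 731.27, 481.1 and 577.2 TPM in the WT libraries. In the group where they were low, 23 of the 38 genes were listed at 0 in all 3 libraries: 9 of the 16 sgs3-only genes and 14 of the 22 WT-only genes. The table holds TPM without read counts, so the depth behind a value listed at 0 is unknown.

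**Figure D1:**
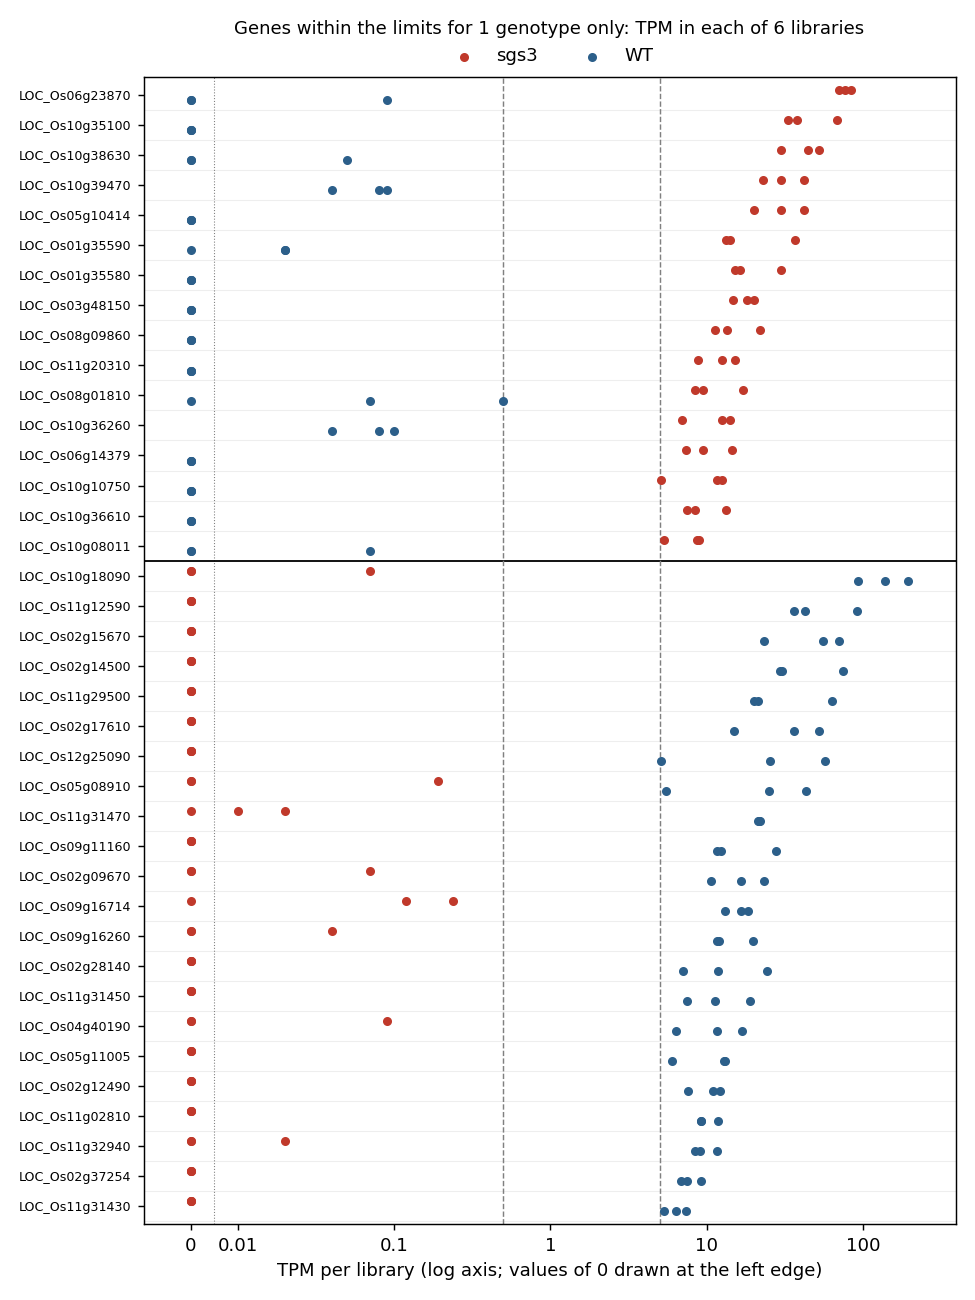
TPM of each of the 38 genes in the 3 sgs3 and 3 WT libraries on a log axis, 1 row a gene and 1 point a library, with values of 0 at the left edge and dashed lines at the limits of 0.5 and 5 TPM. The 16 sgs3-only genes (top) lay between 5.12 and 83.66 TPM in sgs3 and between 0 and 0.5 TPM in WT, and the 22 WT-only genes (bottom) lay between 0 and 0.24 TPM in sgs3 and between 5.09 and 195.39 TPM in WT.

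The libraries differed in ways that touch these values. Glutelin and prolamin transcripts, the markers of endosperm (46 genes, 44 of them above 0), took 42.4%, 36.5% and 37.6% of TPM in the sgs3 libraries, against 4.16%, 30.3% and 23.4% in the WT libraries, so that WT replicate 1 stood apart. Oleosin and late embryogenesis genes, the markers of embryo and aleurone (17 genes, all above 0), took 0.331%, 0.428% and 0.387% in sgs3, against 0.117%, 0.286% and 0.590% in WT. Green tissue markers (20 genes, 1 at 0 throughout) took at most 0.0411% of TPM and pollen markers (45 genes, 12 at 0 throughout) at most 0.0298% in any library. Without WT replicate 1 the same limits, then looser by a library, gave 17 sgs3-only and 24 WT-only genes. The part of these differences in the 38 genes was not tested.

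As a group the sgs3-only genes were expressed at ordinary levels. Their mean in sgs3 had a median of 16.7 TPM over the 16 genes (range 7.62 to 76.8), and the other 5659 genes at 5 TPM or more in every sgs3 library had a median of 16.3 TPM. The WT-only genes had a median mean in WT of 16.4 TPM (range 6.37 to 142), against 21.6 TPM for 8424 other genes. Between libraries of the high group, the highest value was a median of 1.96 times the lowest for the sgs3-only genes and 2.29 times for the WT-only genes, where the other genes had 1.62 and 2.08 times. Of the 16 sgs3-only genes, 14 had their lowest sgs3 value in replicate 1 (87.5%, against 76.4% of the other genes). Of the 22 WT-only genes, 15 had their highest WT value in replicate 1 (68.2%, against 75.4%).

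Among the sgs3-only genes, 3 had an informative description, and all were enzymes. LOC_Os06g23870 on chromosome 6, the highest of the sgs3-only genes, is described as peroxisomal acyl-coenzyme A oxidase 4, which in Arabidopsis carries out the first step of beta-oxidation on short-chain fatty acids. It had 69.86, 76.88 and 83.66 TPM in the sgs3 libraries, against 0.09, 0 and 0 TPM in the WT libraries. Its sgs3 values were the closest together of all sgs3-only genes, the highest being 1.20 times the lowest. Its best match among known proteins is a partial sequence, and the domain found in it is the C-terminal domain of acyl-CoA dehydrogenases. Of 4 other genes with the same description, LOC_Os06g23760 and LOC_Os06g23780, with nearby locus numbers, were listed at 0 in every library. Such genes, which the limits did not choose, were tested with limma on log2(scaled TPM + 1), with p adjusted over all 16352 tested genes. The p on TPM as deposited is added where it falls on the other side of 0.05. LOC_Os05g07090 had 1.84, 3.36 and 2.77 TPM in sgs3, against 1.88, 1.57 and 6.93 TPM in WT (limma adjusted p = 0.266). LOC_Os01g06600 had 5.38, 5.55 and 9.21 TPM in sgs3, against 23.41, 7.76 and 8.85 TPM in WT (limma adjusted p = 0.614). Both groups overlapped in each of these copies, and in all sgs3 libraries the sgs3-only copy was the highest of the family.

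LOC_Os08g09860 on chromosome 8 is described as the peroxisomal (S)-2-hydroxy-acid oxidase GLO1, a glycolate oxidase, an enzyme of photorespiration. It had 11.25, 13.5 and 22.09 TPM in the sgs3 libraries and was listed at 0 in all 3 WT libraries. The other gene of that description, LOC_Os03g57220, had 0.22, 12.50 and 3.25 TPM in sgs3, against 13.45, 0.93 and 1.96 TPM in WT, and its groups overlapped (limma adjusted p = 0.667).

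LOC_Os10g38630 on chromosome 10 is described as the probable glutathione S-transferase GSTU6. Plant enzymes of the tau class join glutathione to herbicides and other foreign or oxidised compounds, and their genes often lie in tandem arrays. LOC_Os10g38630 had 29.83, 44.64 and 52.06 TPM in sgs3, against 0, 0.05 and 0 TPM in WT. It lies among 26 glutathione S-transferase genes whose locus names begin with LOC_Os10g38, of which 22 carry the GSTU6 description. Of those 26 genes, 16 stayed under 1 TPM in every library and 4 of these were listed at 0 throughout. Most of the array was therefore close to silent in both genotypes.

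The highest other copy, LOC_Os10g38489, had 55.02, 86.38 and 51.89 TPM in sgs3, against 1.15, 33.29 and 93.98 TPM in WT, where its libraries covered the whole range of the sgs3 values (limma adjusted p = 0.188). LOC_Os10g38189 lay the other way, at 0.18, 0 and 0.09 TPM in sgs3, against 3.10, 4.31 and 11.38 TPM in WT. Its groups did not overlap, yet it missed the threshold (a difference of -2.05 in log2 scaled TPM, SE 0.41, limma adjusted p = 0.0521; 0.0196 on TPM as deposited) and passed it without WT replicate 1 (adjusted p = 0.0118, the lowest of the 6 fits that each leave out a library, whose highest was 0.224). Of the 6 array genes that could be tested apart from LOC_Os10g38630, only LOC_Os10g38140, described as glutathione S-transferase U17, was called. It had 1.92, 1.43 and 2.18 TPM in sgs3, against 0.05, 0 and 0 TPM in WT (log2 fold change 1.85, SE 0.23, limma adjusted p = 0.00762; 0.0542 without WT replicate 3, which ends the call). Copies of an array can share reads, and no source used here tells how reads with several matches were assigned, so the value of each copy is uncertain.

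**Figure D2:**
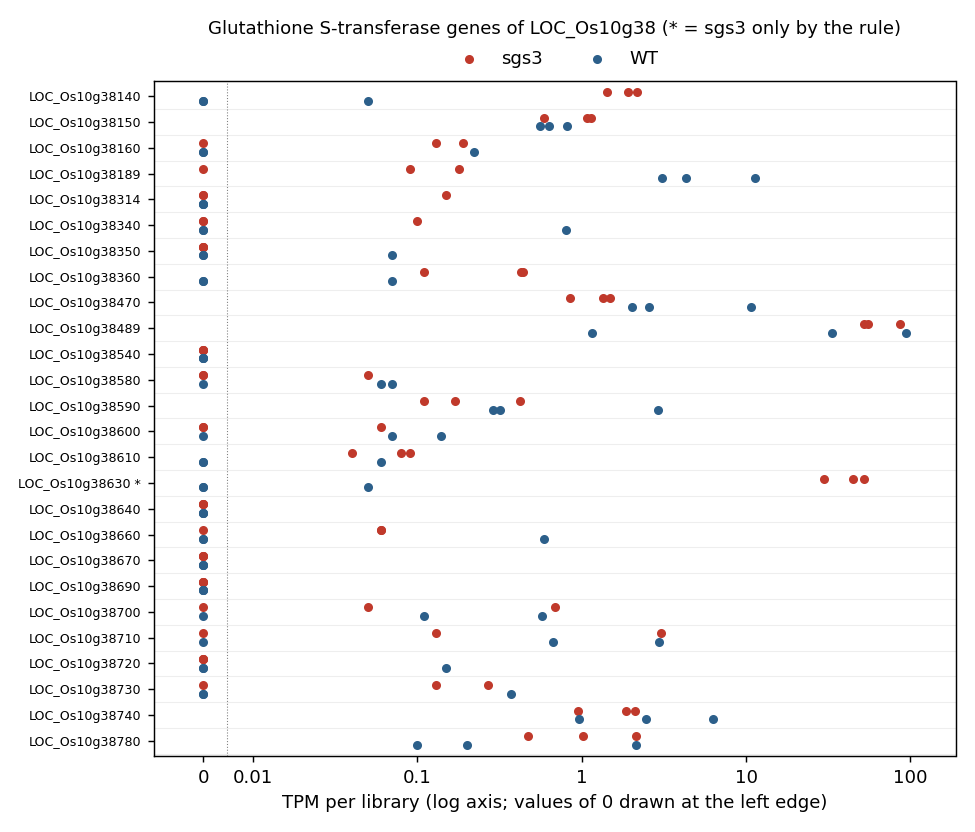
TPM of the 26 glutathione S-transferase genes with locus names beginning LOC_Os10g38, in locus order, 1 point a library, on a log axis with values of 0 at the left edge. LOC_Os10g38630 (asterisk) had 29.83 to 52.06 TPM in sgs3 and 0 to 0.05 TPM in WT, and 16 of the 26 genes stayed under 1 TPM in every library.

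Of the sgs3-only genes without a description, 2 have a match to a curated protein and LOC_Os10g10750 has a match to a named rice protein. They were named after their values were seen, as were all further genes without an informative description outside the runs. LOC_Os08g01810 has the probable nucleolar protein 5-2 as its curated match and holds its NOP5NT domain, while its best rice match is a hypothetical protein. This family forms the core of the particles that methylate ribosomal RNA. It had 8.43, 9.43 and 16.99 TPM in sgs3, against 0.07, 0.5 and 0 TPM in WT, and the 0.5 TPM of WT replicate 2 stands exactly at the lower limit. A second gene with that match, LOC_Os06g24920, missed the lower limit through the same library, with 53.13, 53.91 and 71.46 TPM in sgs3, against 0, 0.85 and 0 TPM in WT. The 2 genes that carry the nucleolar protein's own description, LOC_Os03g22740 and LOC_Os03g22730, were expressed in both genotypes. LOC_Os03g22740 had 2.67, 6.37 and 26.83 TPM in sgs3, against 150.88, 27.62 and 52.18 TPM in WT (limma adjusted p = 0.108; 0.0448 on TPM as deposited), and LOC_Os03g22730 did not pass on scaled TPM either (adjusted p = 0.112; 0.0451 on TPM as deposited).

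LOC_Os10g10750 matches the 70 kDa subunit B of replication protein A, which coats single-stranded DNA. It also carries the ortholog name RPA1 for that protein, while its only functional (gene ontology) term is that of a membrane component. It had 5.12, 11.71 and 12.51 TPM in sgs3 and was listed at 0 in all 3 WT libraries. LOC_Os01g35580 has as its curated match the pre-mRNA-processing factor 19, a ubiquitin ligase of the spliceosome, although no domain was found in it and its best rice match is an uncharacterised protein. It had 15.17, 16.38 and 29.78 TPM in sgs3 and was listed at 0 in all 3 WT libraries. Its direct neighbour LOC_Os01g35590 had 14.09, 13.39 and 36.65 TPM in sgs3, against 0, 0.02 and 0.02 TPM in WT. In both genes sgs3 replicate 3 was the highest, and the 3 listed genes on either side of the pair were at 0 in every library. The other gene with that match, LOC_Os10g32880, had 8.88, 11.09 and 20.06 TPM in sgs3, against 82.51, 23.05 and 41.91 TPM in WT (limma adjusted p = 0.156; 0.0451 on TPM as deposited).

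The remaining sgs3-only genes have no known product. LOC_Os11g20310, with annotation terms of a protein kinase, had 8.8, 12.53 and 15.08 TPM in sgs3 and was listed at 0 in WT. LOC_Os10g39470, with a domain of unknown function, had 23.09, 29.95 and 41.83 TPM in sgs3, against 0.09, 0.08 and 0.04 TPM in WT. LOC_Os10g35100 was the second highest sgs3-only gene, with 32.99, 37.85 and 68.49 TPM in sgs3 and 0 in all WT libraries. None of these had an overlap between the groups, as the rule requires. LOC_Os05g10414 (20.08, 41.99 and 30.09 TPM in sgs3) and LOC_Os03g48150 (14.72, 18.21 and 20.21 TPM in sgs3) were likewise listed at 0 in WT. The last 4, LOC_Os06g14379, LOC_Os10g08011, LOC_Os10g36260 and LOC_Os10g36610, lay between 5.33 and 14.44 TPM in sgs3 and between 0 and 0.1 TPM in WT.

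Among the 22 WT-only genes, LOC_Os02g09670 was the single one with an informative description. It is described as transcription factor MYB3, but its best protein match is a putative multidrug resistance protein and its terms are those of an ABC transporter, which pumps compounds across membranes with ATP. No domain of either family was found in it, so the annotation of this gene is not settled. It had 0, 0 and 0.07 TPM in sgs3, against 23.19, 10.62 and 16.66 TPM in WT. The other gene described as MYB3, LOC_Os04g32570, was listed at 0 in every library. LOC_Os02g09690, which lies close by and shares the transporter match, had 2.75, 3.46 and 4.19 TPM in sgs3, against 8.14, 7.30 and 10.16 TPM in WT (limma adjusted p = 0.614 on scaled TPM; 0.0450 on TPM as deposited, where it was called lower).

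Besides LOC_Os02g09670, 5 WT-only genes have a match to a curated protein, of which 3 lie outside the run on chromosome 11 described below. LOC_Os09g16260 matches the rice double-stranded RNA-binding protein 4, whose Arabidopsis namesake helps a Dicer-like enzyme cut double-stranded RNA into small RNAs. It had 0, 0 and 0.04 TPM in sgs3, against 11.61, 12.03 and 19.88 TPM in WT. The gene described as that protein, LOC_Os08g29530, was expressed in both genotypes, with 11.39, 15.65 and 22.47 TPM in sgs3, against 41.89, 22.73 and 35.09 TPM in WT (limma adjusted p = 0.806 on scaled TPM). A domain was not found in LOC_Os09g16260, so whether it codes for a working protein cannot be read from these files. LOC_Os11g32940 matches an F-box/FBD/LRR-repeat protein, a family that picks proteins for degradation, and had 0, 0 and 0.02 TPM in sgs3, against 11.6, 8.44 and 9.03 TPM in WT. LOC_Os12g25090 matches the barley subtilisin-chymotrypsin inhibitor 2A, a protease inhibitor of seeds. It was listed at 0 in sgs3 and had 5.09, 25.51 and 57.33 TPM in WT, the widest spread of all 38 genes, its highest WT value being 11.3 times its lowest. WT replicate 1, the library with few storage protein transcripts, was its lowest.

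The longest run of genes lies on chromosome 11. LOC_Os11g31430, LOC_Os11g31450 and LOC_Os11g31470 follow each other with 1 listed gene between each, and those between were at 0 in every library. LOC_Os11g31430 was listed at 0 in sgs3 and had 7.43, 5.3 and 6.37 TPM in WT. LOC_Os11g31450 was listed at 0 in sgs3 and had 18.98, 7.5 and 11.27 TPM in WT. LOC_Os11g31470 had 0, 0.01 and 0.02 TPM in sgs3, against 21.95, 21.35 and 21.72 TPM in WT, the narrowest spread of all 38 genes (1.03 times). The first and the third match HASTY 1, which in Arabidopsis is an exportin needed for microRNA accumulation, and the middle gene matches only an uncharacterised rice protein. The gene described as HASTY 1, LOC_Os01g26160, was expressed in both genotypes, with 14.54, 17.24 and 19.33 TPM in sgs3, against 31.35, 24.77 and 27.17 TPM in WT (limma adjusted p = 0.327 on scaled TPM). LOC_Os11g31770 and LOC_Os11g31705, with locus numbers near the run, share the HASTY 1 match. Both were expressed in both genotypes and did not pass (limma adjusted p = 0.0697 and 0.595 on scaled TPM).

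Genes on both sides of that run also differed, in both directions. Next to it, LOC_Os11g31420 was listed at 0 in sgs3 and had 3.16, 2.42 and 2.84 TPM in WT (lower in sgs3, limma adjusted p = 0.00578). On the other side LOC_Os11g31480 had 2.09, 2.68 and 2.74 TPM in sgs3, against 0.26, 0.20 and 0.33 TPM in WT (log2 fold change 1.96, SE 0.19, limma adjusted p = 0.00264). LOC_Os11g31500 had 0.66, 0.78 and 1.18 TPM in sgs3, against 3.95, 4.13 and 3.49 TPM in WT, and did not pass (limma adjusted p = 0.104; 0.0436 on TPM as deposited). A little further out, LOC_Os11g31380, which matches an Arabidopsis NAC transcription factor, was higher in sgs3, with 158.8, 167.86 and 130.27 TPM in sgs3, against 11.87, 12.81 and 9.74 TPM in WT (log2 fold change 4.65, SE 0.40, limma adjusted p = 0.00138). Within a few genes, then, some loci were at or near 0 in sgs3 and others were several-fold higher in sgs3 than in WT. None of these 3 called genes lost its call when any 1 library was left out (highest adjusted p = 0.0490, for LOC_Os11g31420).

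**Figure D3:**
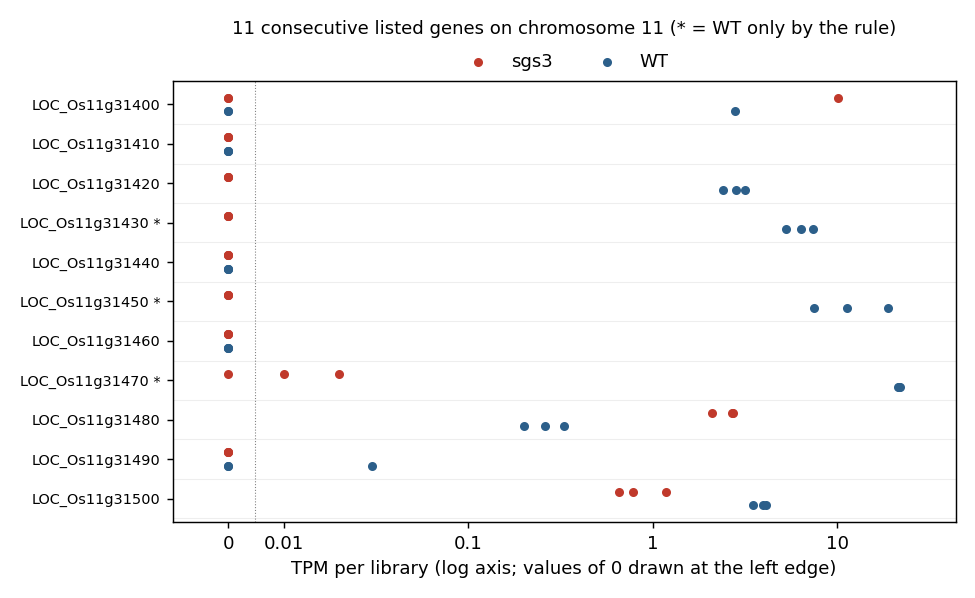
TPM of 11 consecutive listed genes on chromosome 11, in locus order, 1 point a library, on a log axis with values of 0 at the left edge. The 3 WT-only genes (asterisks) lay at 0 to 0.02 TPM in sgs3 and 5.3 to 21.95 TPM in WT, while LOC_Os11g31480 lay at 2.09 to 2.74 TPM in sgs3 and 0.20 to 0.33 TPM in WT.

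The WT-only genes with the highest levels have no known product. LOC_Os10g18090, the highest of all 38, matches a putative antifreeze glycoprotein precursor by name only, with no domain, and had 0, 0.07 and 0 TPM in sgs3, against 195.39, 93.45 and 137.36 TPM in WT. LOC_Os11g12590 was listed at 0 in sgs3 and had 92.06, 36.24 and 42.36 TPM in WT. LOC_Os02g15670 was listed at 0 in sgs3 and had 23.18, 70.29 and 55.45 TPM in WT. In that gene WT replicate 1 was the lowest WT library, where in most WT-only genes it was the highest. LOC_Os02g14500 (74.99, 30.43 and 29.26 TPM in WT), LOC_Os02g17610 (52.14, 14.96 and 36.34 TPM in WT) and LOC_Os11g29500 (63.39, 20.13 and 21.23 TPM in WT) were listed at 0 in every sgs3 library. LOC_Os02g28140, with terms of a nuclear transcription factor, was listed at 0 in sgs3 and had 24.35, 7.05 and 11.76 TPM in WT. LOC_Os05g08910 had 0, 0.19 and 0 TPM in sgs3, against 5.5, 43.02 and 25.07 TPM in WT, again with WT replicate 1 the lowest. LOC_Os04g40190, with a domain of unknown function, had 0.09, 0 and 0 TPM in sgs3, against 16.77, 6.41 and 11.57 TPM in WT. The last 6, LOC_Os02g12490, LOC_Os02g37254, LOC_Os05g11005, LOC_Os09g11160, LOC_Os09g16714 and LOC_Os11g02810, lay between 0 and 0.24 TPM in sgs3 and between 5.99 and 27.94 TPM in WT.

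What the 38 genes shared beyond their levels was sparse annotation, which was not particular to them. Of the genes nearest outside each limit, named further below, only LOC_Os09g15850, LOC_Os07g30990 and LOC_Os06g08910 had an informative description. Such a description was given for 4 of the 38 (10.5%), against 69.4% of the 8830 other genes with at least 5 TPM in every library of a group. A match to a curated protein was given for 11 (28.9%, against 79.4%), a protein domain for 7 (18.4%, against 85.1%) and a functional term for 13 (34.2%, against 76.9%). By contrast 35 (92.1%, against 99.7%) matched some rice protein sequence, often an uncharacterised, hypothetical or partial one. The rule had left out 7 genes that met the limits, some of them by words in their description. The other genes were not filtered in this way, so part of the contrast in descriptions follows from the rule. The authors' splicing tables listed an alternative splicing event in none of the 38, against 43.7% of the other genes. A listed event needs junction reads, and no source used here tells how those tables were filtered. By the rule, the 38 genes had at most 0.5 TPM in every library of the low group. The other genes were not held to that limit. If an event had to have reads in both groups, the rule itself would keep the 38 genes out. No conclusion is therefore drawn from the contrast in splicing events.

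The genes were spread unevenly over the chromosomes. Chromosomes 10 and 11 held 8 each, 21.1% of the 38, where they hold 4.85% and 4.31% of the genes at 5 TPM or more. On chromosome 10 the genes were 7 sgs3-only and 1 WT-only, and on chromosome 11 they were 1 sgs3-only and 7 WT-only. Chromosome 2 held 7, all WT-only (18.4%, against 12.4%), and chromosome 9 held 3, also all WT-only. Chromosome 3 held 1 (2.63%, against 14.7%) and chromosome 7 held none. Of the 8 chromosomes with 2 or more of the genes, 3 held both directions, namely chromosomes 10 and 11 and chromosome 5 with 1 sgs3-only and 2 WT-only genes. The genes were rarely adjacent: besides the pair on chromosome 1 and the run of 3 on chromosome 11, no 2 of them had 10 or fewer listed genes between them. On chromosome 2, the first 5 from LOC_Os02g09670 to LOC_Os02g17610 had 110 to 228 listed genes between neighbours. On chromosome 10, the last 5 from LOC_Os10g35100 to LOC_Os10g39470 had 29 to 167. These are places in locus-name order, since no coordinates were used here.

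**Figure D4:**
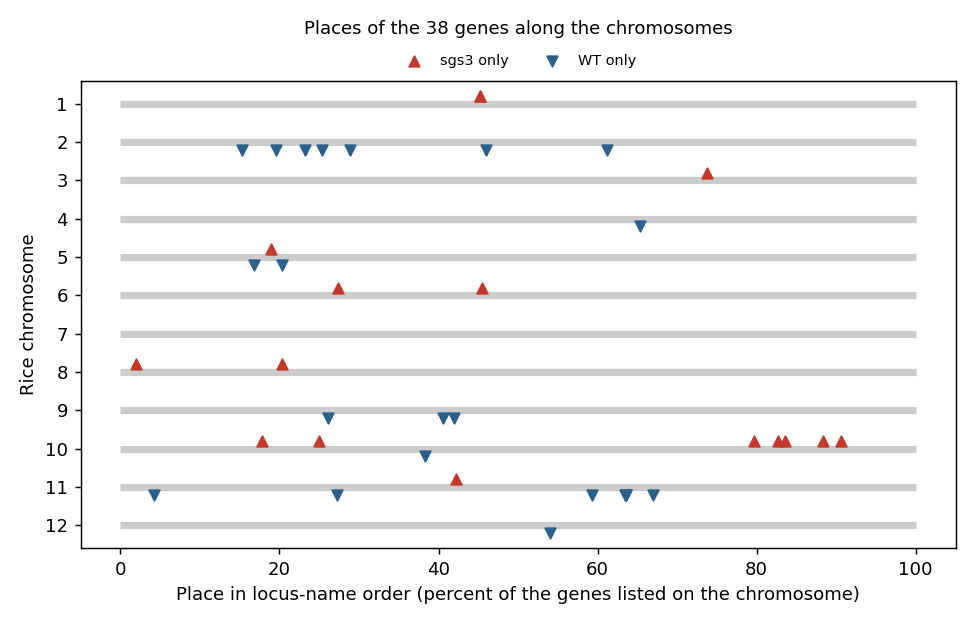
Place of each of the 38 genes along the 12 rice chromosomes, as the percent of the listed genes of that chromosome in locus-name order, with sgs3-only genes as upward and WT-only genes as downward triangles. Chromosome 10 holds 7 sgs3-only genes and chromosomes 2 and 11 hold 7 WT-only genes each, and the adjacent genes on chromosomes 1 and 11 lie on top of each other.

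Genes beside the 38 were examined as genes that the rule did not choose. Within 5 listed genes on either side lay 352 other genes, and 167 of them (47.4%, against 40.1% of all other genes) were at 0 in every library. The 79 with at least 1 TPM in at least 3 libraries were tested with limma on log2(scaled TPM + 1), where scaling by the median of ratios removes a shift of -0.86 in the median log2 fold change of all genes. By that test 9 of the 79 passed an adjusted p of 0.05 (11.4%), against 2.64% of all 16352 genes tested. Of these, 7 were higher in sgs3 and 2 were lower, where 1.60% and 1.03% of all tested genes were. On TPM as deposited, 6 neighbours were called higher and 20 lower (32.9% together), where 1.55% and 26.3% of all tested genes were (27.8% together).

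The 3 called genes beside sgs3-only genes were all higher in sgs3, and they lay beside different genes. LOC_Os10g39510, near LOC_Os10g39470, had 1.49, 1.50 and 3.17 TPM in sgs3 and was listed at 0 in WT (limma adjusted p = 0.00290). LOC_Os08g09820, near LOC_Os08g09860 and matching an aspartic proteinase, had 7.30, 11.85 and 6.61 TPM in sgs3, against 1.51, 0.98 and 1.48 TPM in WT (log2 fold change 2.79, SE 0.32, limma adjusted p = 0.00619). LOC_Os10g36580, near LOC_Os10g36610, had 23.83, 25.13 and 14.70 TPM in sgs3, against 7.46, 1.85 and 9.42 TPM in WT (limma adjusted p = 0.0362), and its call held only without sgs3 replicate 3 among the 6 fits that leave out a library (adjusted p = 0.0196 to 0.174).

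Beside WT-only genes 4 called genes were higher and 2 lower in sgs3. Both lower ones stood directly next to a WT-only gene and were listed at 0 in every sgs3 library. They were LOC_Os11g31420 in the run above and LOC_Os02g12480, next to LOC_Os02g12490, which had 16.79, 3.36 and 6.42 TPM in WT (limma adjusted p = 0.00702) and missed the upper limit of 5 TPM in WT replicate 2 alone. Among the higher ones, LOC_Os02g15660, described as a clustered mitochondria protein, stood directly next to LOC_Os02g15670 and went the other way from it, with 1.96, 3.27 and 2.88 TPM in sgs3, against 0.56, 0.32 and 0.64 TPM in WT (limma adjusted p = 0.00421, log2 fold change 1.85, SE 0.20). The fourth, LOC_Os04g40150, had a log2 fold change of 1.06 on scaled TPM (SE 0.20, limma adjusted p = 0.0419) and 0.21 on TPM as deposited (adjusted p = 0.606), and its call held only without sgs3 replicate 3 (adjusted p = 0.0379 to 0.211). Of the 9 called neighbours, 5 thus lay to the side of the gene they flank and 4 to the other. LOC_Os11g31380, LOC_Os11g31420 and LOC_Os11g31480 among them all flank the run on chromosome 11, so the calls do not all come from separate places.

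Relatives of the 38 genes were chosen by description and by protein match, the list by protein match being added after values were seen. Of 32 genes with the same description as one of them, 10 were tested and none was called by limma. An unadjusted p under 0.05 was found for 3 of these 10, and for 5383 of all 16352 tested genes. Of 76 genes with the same curated protein match, 34 were tested and 2 were called (5.88%, against 2.64% of all tested genes). They were LOC_Os06g24920 (log2 fold change 6.13, SE 0.30, limma adjusted p = 1.35e-04), which lies just outside the limits, and LOC_Os06g06600, 1 of 15 tested relatives of the F-box gene LOC_Os11g32940. LOC_Os06g24920 missed the limits in WT replicate 2 alone (0.85 TPM), so its call adds little beyond the choice of the 38 genes. LOC_Os06g06600 had 23.91, 23.16 and 30.76 TPM in sgs3, against 22.73, 13.28 and 14.59 TPM in WT (log2 fold change 1.66, SE 0.25, limma adjusted p = 0.0188). It did not pass on TPM as deposited (adjusted p = 0.164), nor without sgs3 replicate 1, sgs3 replicate 2 or WT replicate 3 (adjusted p = 0.0871, 0.0853 and 0.0853).

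Wider families were counted in 7 lists, of which beta-oxidation, glutathione S-transferases, MYB and F-box genes are families of described or matched genes among the 38. The other 3 lists (disease resistance proteins, receptor kinases and cytochrome P450) are not. Over all 7 lists, 601 of 2500 genes were tested, and 12 rose and 6 fell (3.0%, against 2.64% of all tested genes). The call count fell to 4 without sgs3 replicate 2 (0.601%, against 0.872% of all tested genes), 6 without sgs3 replicate 1 (0.882%, against 0.926%) and 7 without WT replicate 3 (1.14%, against 1.17%). It was 54 without sgs3 replicate 3 (8.12%, against 11.9%), and in these 4 fits the lists lay below the share of all tested genes. Of 10 tested genes of peroxisomal beta-oxidation, the pathway of the acyl-CoA oxidase, 1 rose and none fell (10%), with a median log2 fold change of 0.52, against -0.01 over all tested genes. That gene, LOC_Os02g57260 for 3-ketoacyl-CoA thiolase 2, had 23.68, 24.90 and 23.59 TPM in sgs3, against 15.89, 12.23 and 17.63 TPM in WT (log2 fold change 1.67, SE 0.30, limma adjusted p = 0.0365). It did not pass on TPM as deposited (adjusted p = 0.124), and among the fits that leave out a library it passed only without sgs3 replicate 3 (adjusted p = 0.0252 to 0.174). Of 28 tested glutathione S-transferases 2 rose and none fell (7.14%), with a median of 0.04. One was LOC_Os10g38140 above. The other, LOC_Os03g17470, described as IN2-1 homolog B, had 38.20, 31.82 and 28.87 TPM in sgs3, against 8.21, 5.04 and 11.91 TPM in WT (log2 fold change 2.92, SE 0.38, limma adjusted p = 0.0102; 0.0637 without sgs3 replicate 2).

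Of 145 tested F-box genes 1 rose and 3 fell (2.76%), with a median of 0.12. The gene among them with the smallest p, LOC_Os08g09450, described as putative F-box/LRR-repeat protein 23, was listed at 0 in sgs3 and had 4.47, 2.12 and 3.82 TPM in WT (limma adjusted p = 0.00253). Of 67 tested MYB genes 1 rose (1.49%), of 54 tested cytochrome P450 genes 1 rose (1.85%), and none of either list fell. Of 47 tested disease resistance genes 4 rose and none fell (8.51%, against 2.64% of all tested genes), with a median of 0.20, and 1 of the 4 was LOC_Os01g05620 of the block on chromosome 1 that was left out. With a library left out 1 to 6 disease resistance genes rose. Only 1 did without sgs3 replicate 1 (1.89%, against 0.926% of all tested genes) and without sgs3 replicate 2 (1.96%, against 0.872%). The same held without WT replicate 3 (2.04%, against 1.17%), and 3 rose without WT replicate 1 (6.12%). There were 6 without sgs3 replicate 3 (11.8%, against 11.9%) and without WT replicate 2 (11.3%, against 2.92%). Only without sgs3 replicate 3 was the share not above that of all tested genes. Of 251 tested receptor kinase genes 2 rose and 3 fell (1.99%), with a median of 0.11.

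The limits cut through a continuous range of values. The sgs3-only genes nearest above the upper limit were LOC_Os10g10750, LOC_Os10g08011 and LOC_Os10g36260, with a lowest sgs3 value of 5.12, 5.33 and 6.99 TPM. Just below it were LOC_Os12g22145, LOC_Os12g26220 and LOC_Os07g31000, with 4.92, 4.88 and 4.83 TPM. For the lower limit, the highest WT value was 0.5 TPM in LOC_Os08g01810, 0.1 TPM in LOC_Os10g36260 and 0.09 TPM in LOC_Os06g23870. It was 0.85 TPM in LOC_Os06g24920, 0.92 TPM in LOC_Os08g36040 and 0.98 TPM in LOC_Os09g15850, a probable WRKY transcription factor 19, which fell outside.

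Among WT-only genes the lowest WT value was 5.09 TPM in LOC_Os12g25090, 5.3 TPM in LOC_Os11g31430 and 5.5 TPM in LOC_Os05g08910. Outside stood LOC_Os12g20410 at 4.36 TPM, LOC_Os07g30990 (polyubiquitin 9) at 4.2 TPM and LOC_Os06g08910 (glutamate receptor 2.8) at 4.13 TPM. The highest sgs3 value was 0.24 TPM in LOC_Os09g16714, 0.19 TPM in LOC_Os05g08910 and 0.09 TPM in LOC_Os04g40190 inside the limit. It was 0.66 TPM in LOC_Os02g28660, 0.85 TPM in LOC_Os07g30280 and 0.89 TPM in LOC_Os09g12060 outside it.

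The choice was also made 6 times with 1 library left out. All 38 genes are chosen each time, since the limits are then only looser, so the figures of interest are the further genes that passed in the other 5 libraries and failed in the one left out. For the sgs3-only choice there were 5 such genes in sgs3 replicate 1, none in sgs3 replicates 2 and 3, and 1, 3 and 1 in WT replicates 1, 2 and 3. In sgs3 replicate 1, 76.2% of the genes chosen without it thus stayed at 5 TPM or more, against 83.8% of all genes at that level in the other sgs3 libraries. In WT replicate 2, 84.2% stayed at 0.5 TPM or less, against 99.4% of all genes at that level in the other WT libraries. In WT replicates 1 and 3 it was 94.1% each, against 95.6% and 96.9%, so in 4 of the 6 libraries the share was below that of all genes. The median share over the 6 libraries was 94.1%. The reference genes met no limit in the other group, so their shares are not like for like with those of the chosen genes. A further gene that came out at the opposite limit was LOC_Os02g37490, described as a glycine-rich cell wall structural protein, with 41.83, 14.49 and 46.68 TPM in sgs3, against 0, 0.45 and 20.28 TPM in WT.

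For the WT-only choice, the library with the most further genes was sgs3 replicate 3. Without it 40 genes were chosen, and 18 of them were above 0.5 TPM in it, so that 55.0% stayed at or under that level, against 95.5% of all genes at 0.5 TPM or less in the other sgs3 libraries. Of the 18, 9 had 5 TPM or more there. They included LOC_Os06g17480 (nuclear transcription factor Y subunit B-6), with 0.05, 0 and 6.9 TPM in sgs3, against 84.48, 9.69 and 10.25 TPM in WT, and LOC_Os07g01620 (dirigent protein 3), with 0.1, 0.49 and 12.16 TPM in sgs3, against 186.17, 5.85 and 19.38 TPM in WT. In both genes WT replicate 1 was far above the other WT libraries. In LOC_Os07g01620 sgs3 replicate 3 lay between WT replicates 2 and 3, and in LOC_Os06g17480 it lay below every WT library. Without WT replicate 2, 33 genes were chosen and 11 of them fell short of 5 TPM in it, so that 66.7% stayed, against 84.4% of all genes at that level in the other WT libraries. There were 2 further genes in WT replicate 1 and none in WT replicate 3 or sgs3 replicates 1 and 2, and the median share over the 6 libraries was 95.8%. Here too the reference genes met no limit in the other group, so the shares are not like for like.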

How the data were processed

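Gene levels were read from a table of TPM values that the authors deposited, although its name calls them counts, with 6 libraries whose TPM summed to between 967526 and 994306. TPM keeps no depth, so no counting error can be given. The submitters' processing notes name DESeq2 1.12.4, HISAT2 2.1.0, RSEM, StringTie and Bowtie2 without their roles. The build and annotation are not stated in any source used here. The deposited splicing tables served only to look up gene names.

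The 38 genes follow a rule on TPM as deposited. The genes and lists were chosen with earlier results of these data known. Named were genes with an informative description or in a run of at most 10 listed genes between members, those nearest each limit, and the called neighbours and relatives with the smallest p. Other names and the list of relatives by protein match were added after values were seen. Neighbours, relatives and families were tested with limma 3.58.1 (R 4.3.3, trend) on log2(TPM + 1) after median-of-ratios scaling (factors 0.494 to 2.01), for genes with at least 1 TPM in at least 3 libraries, with Benjamini-Hochberg adjustment over 16352 genes. The fit was tested on simulated data with the same spread for every gene and no library effects. That test therefore does not cover the differences among these libraries. Python 3.11.15 was used for tables and figures.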

Additional observations from a re-analysis of the deposited data

How the results depend on the processing

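An upper limit of 10 TPM gave 9 sgs3-only and 11 WT-only genes, and 2 TPM gave 33 and 64. Scaled TPM gave 25 sgs3-only and 15 WT-only genes, among them all 16 sgs3-only and 15 of the 22 WT-only genes. Leaving out 1 library gave 16 to 21 sgs3-only (21 without sgs3 replicate 1) and 22 to 40 WT-only genes (40 without sgs3 replicate 3), and a lower limit of 0.1 or 1 TPM gave 15 to 19 and 20 to 27. The 9 called neighbours became 26 on TPM as deposited (32.9%, against 27.8% of all tested genes), where 26.3% of all genes were called lower. Within 2 listed genes 4 were called (14.3%) and within 10 listed genes 16 (8.99%), against 2.64%. With a library left out 7 to 16 were called. The share was 7.45% without sgs3 replicate 1 (against 0.926% of all tested genes). It was 18.2% without sgs3 replicate 3, where 16 were called (against 11.9%). Called relatives numbered 2 on TPM as deposited, 1 with a pseudocount of 0.1 and 0 to 1 with a library left out. The 18 called family genes became 96 on TPM as deposited (16%, against 27.8% of all tested genes) and 4 to 54 with a library left out. Replicate numbers did not pair the libraries (correlations of deviations -0.53, 0.15 and -0.08). With a replicate block, 3 neighbours (3.80%), 0 relatives and 2 family genes (0.333%) were called, against 0.709% of all tested genes. Of the values of single named genes under these alternatives, 165 kept their direction and stayed called or uncalled as before, 4 gained a call, 61 lost a call and 0 reversed. The cause was not tested. Unknown depth limits what a value of 0 shows.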

Other observations

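Beside the 38 genes, 2 adjacent receptor kinase genes on chromosome 1 fell in sgs3 without reaching the upper limit in every WT library. LOC_Os01g02700, described as a G-type lectin S-receptor-like kinase, had 0.16, 0.27 and 0.30 TPM in sgs3, against 5.29, 3.73 and 5.05 TPM in WT (limma adjusted p = 0.00483, log2 fold change -1.62 on scaled TPM, SE 0.18), and was called with any 1 library left out. LOC_Os01g02690, a probable receptor-like kinase, had 0.02, 0 and 0.03 TPM in sgs3, against 2.25, 3.10 and 4.59 TPM in WT (log2 fold change -1.64, SE 0.27, limma adjusted p = 0.0279). It was called in 2 of the 6 fits that leave out a library (adjusted p = 0.00669 to 0.135). Receptor kinases sit in the plasma membrane and read signals from outside the cell. LOC_Os02g18000, a putative disease resistance protein RGA4, rose, with 2.97, 3.04 and 2.51 TPM in sgs3, against 0.06, 0.67 and 0.47 TPM in WT (limma adjusted p = 0.0200, log2 fold change 1.97, SE 0.30), and was also called in 2 of those 6 fits (adjusted p = 0.0176 to 0.109). These genes were named after their values were seen.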
